A study of Mus musculus with 12 samples.

Results

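The 10 genes described here encode RNA-binding proteins that choose which exons are kept in mature transcripts: Celf1, Celf2, Celf4 and Celf5 of the CELF family, Mbnl1 and Mbnl2 of the muscleblind family, Rbfox1, Rbfox2 and Rbfox3 of the RBFOX family, and Nova1. Their loci were taken from the deposited expression tables by gene name, with loci of the intronic type left out. This gave 11 of the 22306 loci, because Nova1 has a second locus of the run-on type. Another 59 loci carried the same names but were of the intronic type, 39 of them named Celf2 and 17 named Rbfox1. The genes were chosen by name, with values of these libraries in view. Celf2 in particular was selected on its FPKM, listed at 0 in 2 of the 3 groups, so its values are a description and were not tested.

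CELF proteins bind GU-rich RNA and MBNL proteins bind motifs around a GC step. RBFOX proteins bind UGCAUG, and NOVA proteins bind clusters of UCAU and related motifs. Each can enhance or repress an exon depending on whether it binds downstream or upstream of it, and several also act on transcript stability or translation. In muscle and brain, CELF and MBNL proteins often act in opposite directions on the same exons, and loss of MBNL function with a gain of CELF1 is a hallmark of myotonic dystrophy. Celf4, Celf5, Rbfox1, Rbfox3 and Nova1 are mainly neuronal, while Celf1, Mbnl1, Mbnl2 and Rbfox2 are found in many tissues. Rbfox3 protein is the antigen known as NeuN, the usual marker of mature neurons.

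Mice of strain C57BL/6 were given 10 µg of small interfering RNA (siRNA) intranasally, and hippocampal RNA was collected after 3 days. There were 12 libraries, 4 in each of 3 groups: siHdac4, directed at histone deacetylase 4, siBdnf, directed at brain-derived neurotrophic factor, and siScramble, a control siRNA. Poly-A RNA was sequenced from strand-specific libraries, and each library has 1 value per locus in FPKM, a read density per kilobase of transcript scaled to library size. The labels do not tie libraries to single animals, so the spread behind every p-value may be technical in part.

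The libraries carried the markers of brain tissue, and the sum of 12 neuronal markers was 2338 to 2555 FPKM in siHdac4, 2598 to 2859 FPKM in siBdnf and 2299 to 2687 FPKM in siScramble. None of the 12 was at 0 in every library. The sum of 12 choroid plexus markers was 67.7 to 140 FPKM in siHdac4 and 74.0 to 166 FPKM in siBdnf. In siScramble it was 1092 FPKM in library 1, 2734 FPKM in library 3, and 70.6 to 84.2 FPKM in the other two, so those 2 control libraries stand apart. The targeted transcripts did not separate the groups. Hdac4 averaged 41.0 ± 5.93 FPKM in siHdac4 and 39.1 ± 5.94 FPKM in siScramble, and Bdnf averaged 5.19 ± 0.255 FPKM in siBdnf and 5.37 ± 0.174 FPKM in siScramble (SD, n = 4 each). Groups are therefore named by their labels throughout. No read totals came with the FPKM, so depth is unknown.

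The members of a family resemble each other in their coding parts, and reads from one could be placed on another if long stretches were shared. Over aligned coding bases, 62.7% to 75.2% were identical between CELF paralogues, 69.9% to 73.0% between RBFOX paralogues and 73.9% between Mbnl1 and Mbnl2. The longest exact run shared by any annotated transcripts of a pair was 43 bases, between Celf4 and Celf6, and it was 23 bases between Celf1 and Celf2. The 90-base coding windows shown here, each within 1 exon, are those in which the paralogues were most alike, from GENCODE M21 transcripts on GRCm38. Capitals mark bases that differ from the first sequence of each family. Celf1 is at chr2:91012701-91012790 (plus strand, exon 13) and Celf2 at chr2:6549884-6549973 (minus strand, exon 12), with 14 differing bases. Rbfox2 is at chr15:77105577-77105666 (minus strand, exon 6), Rbfox1 at chr16:7292188-7292277 (plus strand, exon 5, 7 differing bases) and Rbfox3 at chr11:118502842-118502931 (minus strand, exon 8, 23 differing bases). Mbnl1 is at chr3:60595597-60595686 (plus strand, exon 2) and Mbnl2 at chr14:120379153-120379242 (plus strand, exon 3, 13 differing bases).
Celf1: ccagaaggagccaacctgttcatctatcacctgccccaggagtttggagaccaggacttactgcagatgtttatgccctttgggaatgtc
Celf2: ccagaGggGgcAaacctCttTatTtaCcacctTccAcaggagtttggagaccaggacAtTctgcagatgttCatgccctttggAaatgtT
Rbfox2: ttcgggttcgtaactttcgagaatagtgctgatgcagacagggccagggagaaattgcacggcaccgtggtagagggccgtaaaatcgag
Rbfox1: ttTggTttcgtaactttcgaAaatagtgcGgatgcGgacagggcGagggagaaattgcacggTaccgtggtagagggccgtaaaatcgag
Rbfox3: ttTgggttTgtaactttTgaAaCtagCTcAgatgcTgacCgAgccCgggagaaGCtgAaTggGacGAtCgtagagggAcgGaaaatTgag
Mbnl1: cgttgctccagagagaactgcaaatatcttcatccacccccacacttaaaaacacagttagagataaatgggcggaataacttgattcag
Mbnl2: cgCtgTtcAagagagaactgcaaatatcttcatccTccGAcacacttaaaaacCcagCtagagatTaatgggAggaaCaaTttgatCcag
Even in these windows the paralogues differed at 7 to 23 of 90 bases. The sources used here do not say how reads matching several places were treated.

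Levels of the members spanned a wide range, and FPKM is per transcript length, so genes can be set side by side. Over the 12 libraries Celf4 averaged 89.7 FPKM and Mbnl2 76.5 FPKM, above 95.7% and 94.6% of the tested protein-coding loci. Rbfox2 at 32.9 FPKM, Mbnl1 at 32.6 FPKM and Rbfox3 at 28.5 FPKM came next, followed by Celf1 at 22.5 FPKM, Celf5 at 16.02 FPKM and Nova1 at 9.87 FPKM. The locus named Rbfox1 was lowest of those tested, at 1.97 FPKM. Over the 12 libraries the range of Celf4 (82.3 to 104 FPKM) lay above that of Mbnl2 (72.1 to 80.6 FPKM), which lay above all the rest. Rbfox2 (30.3 to 33.9 FPKM), Mbnl1 (29.0 to 34.9 FPKM) and Rbfox3 (20.1 to 36.6 FPKM) could not be ordered beyond their spread, and Rbfox3 also overlapped Celf1 (20.3 to 24.8 FPKM). Celf5 (11.04 to 20.2 FPKM) lay below every library of Celf1, and its range overlapped that of Nova1 (7.30 to 12.2 FPKM).

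**Figure D1:**
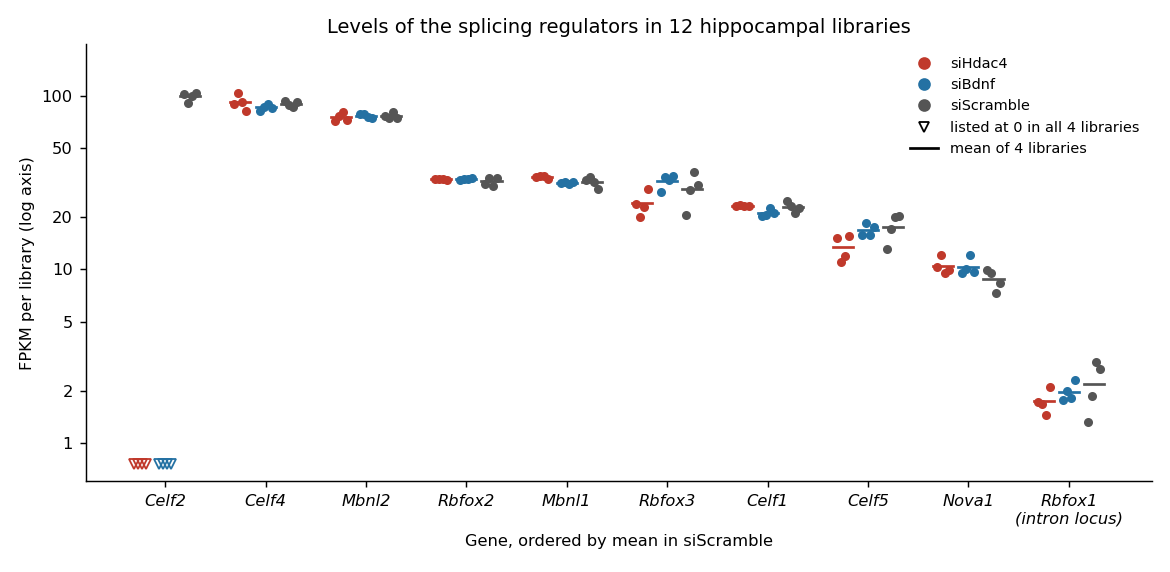
FPKM of each member (log axis) in the 12 libraries, with points for libraries, bars for the mean of 4 libraries and open triangles where all 4 libraries of a group are listed at 0. Celf4 and Mbnl2 lie highest among the members estimated in every group, between 72.1 and 104 FPKM, and Celf2 has values in siScramble alone.

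Celf2 had the highest mean of the members in siScramble, the group where it has values. It was listed at 0 FPKM in all 4 siHdac4 libraries and all 4 siBdnf libraries, and at 102, 91.8, 99.6 and 105 FPKM in siScramble libraries 1 to 4 (99.7 ± 5.67, SD, n = 4). Its siScramble range, 91.8 to 105 FPKM, overlapped that of Celf4 in the same group, 86.8 to 93.8 FPKM. In the authors' deposited table Celf2 had a log2 fold change of 0 with a p of 1 in both comparisons, although the listed values differ. Its locus (chr2:6532897-7396612 as the tables give it, 863716 bases) shares these coordinates with 39 intronic loci. All 40 were listed at 0 in the 8 siHdac4 and siBdnf libraries, and the 39 intronic ones had siScramble means of 12.8 to 177 FPKM with a median of 33.5 FPKM. These zeros are therefore treated as values that were not estimated, and no fold change is given for Celf2.

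Large sets of loci were also looked at for such zeros. Of the 15874 sets of coordinates in the tables, 12 others held at least as many loci as the Celf2 set and 66 others spanned at least as many bases. None of these sets held a locus listed at 0 throughout a group while another group averaged 1 FPKM or more. Over all loci, 63 had that pattern, 40 of them in the Celf2 set and 23 under other names. They were left out of all fits.

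No tested member passed the threshold in any of the 3 comparisons. The fit covered 18339 loci, with limma on log2(FPKM + 1) and p-values adjusted over all of them by the Benjamini-Hochberg method, and 9 members were among them. At an adjusted p below 0.05, 0 of 9 members were called for siHdac4 against siScramble (0.00545% of all loci), 0 of 9 for siBdnf against siScramble (0% of all loci, 1581 loci at an unadjusted p below 0.05) and 0 of 9 for siHdac4 against siBdnf (0.00545% of all loci). At an unadjusted p below 0.05, 2 members were counted for siHdac4 against siScramble (9.95% of all loci), 1 lower (5.43%) and 1 higher (4.52%). For siBdnf against siScramble 0 were counted (8.62% of all loci; 2.9% lower, 5.72% higher), and for siHdac4 against siBdnf 3 (15.6%), 2 lower (10.5%) and 1 higher (5.15%). The smallest adjusted p of a member was 0.487 for siHdac4 against siScramble, 0.604 for siBdnf against siScramble and 0.256 for siHdac4 against siBdnf. In the authors' deposited table the smallest FDR of a member was 0.295, for Celf5 in siHdac4.

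**Figure D2:**
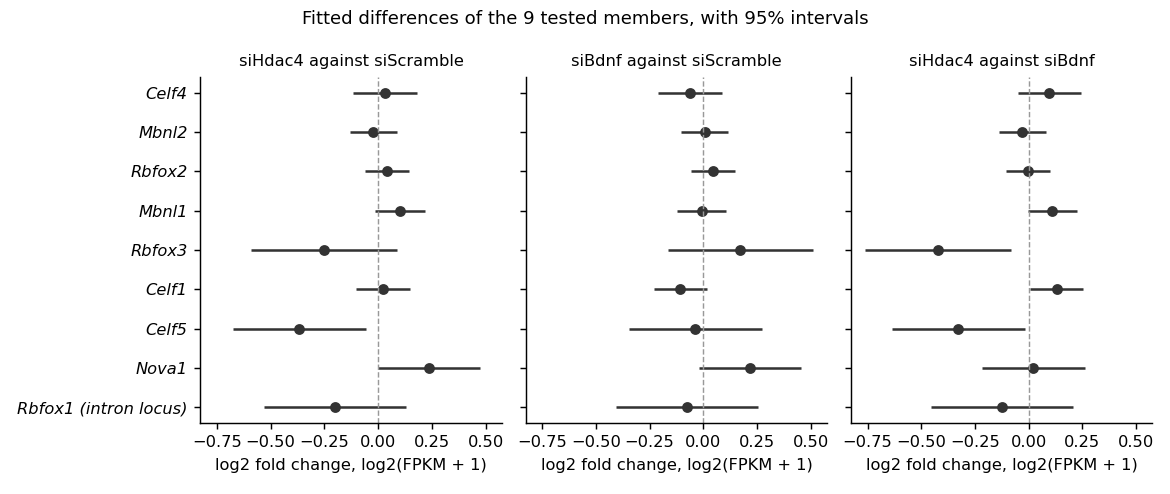
Log2 fold changes of the 9 tested members on the log2(FPKM + 1) scale (points) with 95% intervals (lines) from the fit over all loci, in the 3 comparisons. Intervals are narrow for Rbfox2, Mbnl2, Mbnl1 and Celf1 and wide for Celf5, Rbfox3 and the Rbfox1 locus, and no adjusted p lay below 0.256.

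Celf5, a mainly neuronal member of the CELF family, had the largest fitted difference from siScramble among the members. It was at 15.2, 11.04, 11.9 and 15.6 FPKM in siHdac4, at 15.9, 18.6, 15.8 and 17.7 FPKM in siBdnf and at 13.2, 17.2, 20.1 and 20.2 FPKM in siScramble. The siHdac4 libraries all lay below the siBdnf libraries, while siScramble library 1 lay among the siHdac4 values. The log2 fold change was −0.37 for siHdac4 against siScramble (SE 0.14, 95% interval −0.68 to −0.057, limma adjusted p = 0.487). For siHdac4 against siBdnf the value was −0.33 (95% interval −0.64 to −0.0195, limma adjusted p = 0.301), and for siBdnf against siScramble −0.038 (95% interval −0.35 to 0.27, limma adjusted p = 0.963). Without siScramble library 1 the siHdac4 difference was −0.49 with a limma adjusted p of 0.0776, the smallest of any member under any setting, and the siBdnf difference was −0.16 (limma adjusted p = 0.728). Without any other single library the siHdac4 difference was −0.44 to −0.28. For Celf5 in siHdac4 the authors' deposited table has a log2 fold change of −0.40, with a p of 0.0065 and an FDR of 0.295.

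Celf1, whose gain in myotonic dystrophy shifts splicing in muscle towards fetal forms, was at 23.3, 23.5, 23.2 and 23.1 FPKM in siHdac4. It was at 20.3, 20.6, 22.8 and 21.1 FPKM in siBdnf and at 24.8, 23.2, 21.1 and 22.5 FPKM in siScramble. The 4 siHdac4 values lay within a band narrower than that of either other group and above every siBdnf value. The log2 fold change was 0.13 for siHdac4 against siBdnf (95% interval 0.0053 to 0.25, limma adjusted p = 0.304) and 0.022 for siHdac4 against siScramble (95% interval −0.10 to 0.15, limma adjusted p = 0.905). Celf4, whose loss causes seizures in mice, was at 90.5, 104, 93.0 and 82.6 FPKM in siHdac4, at 82.3, 87.0, 90.5 and 85.7 FPKM in siBdnf and at 93.8, 88.3, 86.8 and 91.9 FPKM in siScramble. All 3 groups overlapped, and the 95% interval for siHdac4 against siScramble was −0.11 to 0.18 on the log2 scale (limma adjusted p = 0.880).

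The muscleblind genes were among the steadiest members. Mbnl1, which promotes adult splice forms in muscle and is sequestered by repeat RNA in myotonic dystrophy, was at 34.3, 34.7, 34.9 and 33.2 FPKM in siHdac4. It was at 31.8, 31.9, 30.9 and 32.1 FPKM in siBdnf and at 32.6, 34.1, 31.8 and 29.0 FPKM in siScramble. Every siHdac4 library lay above every siBdnf library, and the log2 fold change between them was 0.11 (95% interval −0.0052 to 0.23, limma adjusted p = 0.339). Mbnl2, the family member with the main role in brain splicing, was at 72.1, 76.5, 80.6 and 73.2 FPKM in siHdac4, at 78.9, 78.6, 76.2 and 74.8 FPKM in siBdnf and at 77.3, 74.98, 80.5 and 74.4 FPKM in siScramble. The groups overlapped throughout, and its 95% intervals against siScramble were −0.13 to 0.087 for siHdac4 and −0.10 to 0.12 for siBdnf on the log2 scale.

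Celf5, Celf1 and Mbnl1 were the 3 of 9 members whose libraries did not overlap between siHdac4 and siBdnf, Celf5 lower and the other two higher in siHdac4. Among all tested loci the share without overlap in that comparison was 13.0%, and a count this small is not read as a result about the members. Against siScramble, 0 of 9 members were without overlap in siHdac4 (3.53% of all loci) and 0 of 9 in siBdnf (4.87% of all loci). The median log2 fold change of the 9 members was 0.022 for siHdac4 against siScramble, −0.0081 for siBdnf against siScramble and −0.0025 for siHdac4 against siBdnf. Over all loci these medians were −0.0089, 0.021 and −0.028.

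Rbfox3, the NeuN gene, had the highest SD within groups of the 9 tested members on the log2(FPKM + 1) scale, which compresses low loci. In FPKM the siScramble coefficient of variation was 22.5% for Rbfox3 and 33.6% for the low Rbfox1 locus. It was at 23.98, 20.1, 22.9 and 29.2 FPKM in siHdac4, at 27.9, 34.1, 33.1 and 34.8 FPKM in siBdnf and at 20.7, 28.6, 36.6 and 30.6 FPKM in siScramble. The siBdnf libraries lay above the siHdac4 libraries, except that siHdac4 library 4 lay above siBdnf library 1, and siScramble spanned nearly the whole range. The log2 fold change was −0.42 for siHdac4 against siBdnf (95% interval −0.76 to −0.085, limma adjusted p = 0.256), the largest fitted difference of a member in any comparison. It was −0.25 for siHdac4 against siScramble (95% interval −0.59 to 0.088, limma adjusted p = 0.572) and 0.17 for siBdnf against siScramble (95% interval −0.17 to 0.51, limma adjusted p = 0.784). Without siScramble library 1 these were −0.40 (limma adjusted p = 0.129) and 0.024 (limma adjusted p = 0.975), and without siScramble library 3 they were −0.14 (limma adjusted p = 0.863) and 0.29 (limma adjusted p = 0.535). The summed neuronal markers were also lower in siHdac4 than in every siBdnf library (2338 to 2555 against 2598 to 2859 FPKM). A sum is led by the most abundant markers, and the median log2 fold change of the 12 was −0.0046, with 5 above 0 and 7 below. Of the 12 markers, 3 were lower (10.5% of all loci) and 2 higher (5.15%) at an unadjusted p below 0.05 in that comparison and 0 were called by limma, and their part in the Rbfox3 difference was not tested. In whole tissue, fewer cells of a type and less RNA per cell cannot be told apart.

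Rbfox2, which acts in brain, muscle and epithelia, was the steadiest member. It was at 33.4, 33.1, 33.1 and 33.0 FPKM in siHdac4, at 32.8, 33.2, 33.3 and 33.6 FPKM in siBdnf and at 31.1, 33.6, 30.3 and 33.9 FPKM in siScramble. Its lowest values were in library 3 and then library 1 of siScramble, which had the high choroid plexus sums, and the part of that tissue in those values was not tested. The 95% intervals were −0.061 to 0.14 for siHdac4 and −0.059 to 0.15 for siBdnf against siScramble on the log2 scale. Its SD within groups was 0.046 on the log2 scale, and 2.2% of the 500 protein-coding loci nearest in level had a smaller one, while that of Rbfox3 was 0.24, larger than that of 94.2% of its own nearest loci. Celf5 at 0.22 was above 86.2% of its nearest loci, and Celf1, Mbnl1 and Mbnl2 were above 11.6%, 8.8% and 9.0% of theirs.

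Nova1, first known as a target of autoimmune antibodies in paraneoplastic disease and a regulator of synaptic transcripts, had its lowest values in siScramble. Its protein-coding locus was at 10.4, 12.1, 9.58 and 9.95 FPKM in siHdac4, at 9.49, 10.1, 12.2 and 9.66 FPKM in siBdnf and at 9.98, 9.52, 7.30 and 8.30 FPKM in siScramble. Libraries 3 and 4 of siScramble lay below all 8 siHdac4 and siBdnf libraries, and libraries 1 and 2 lay among them. The log2 fold change was 0.24 for siHdac4 against siScramble (95% interval 0.00055 to 0.48, limma adjusted p = 0.501) and 0.22 for siBdnf against siScramble (95% interval −0.021 to 0.45, limma adjusted p = 0.604). The siBdnf value was 0.14 both without siBdnf library 3 (limma adjusted p = 0.788) and without siScramble library 3 (limma adjusted p = 0.676). These comparisons share the siScramble libraries. The run-on locus of Nova1 lies 304 bases past the nearest annotated exon and averaged 0.499 ± 0.0364 FPKM in siHdac4, 0.469 ± 0.0667 FPKM in siBdnf and 0.572 ± 0.231 FPKM in siScramble (SD, n = 4 each). It was under the filter of a mean of 1 FPKM and was not tested.

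The locus that the tables name Rbfox1 holds none of the annotated exons of the gene. It covers 2898 bases (chr16:6265668-6268565 as the tables give it), and in GENCODE M21 on GRCm38 it lies 380.3 kb into a gene of 1526172 bases, 80573 bases from the nearest exon. By contrast, the loci of the other nine genes covered 78.9% (Mbnl2) to 100% (Celf4) of the annotated exonic bases of their genes. The tables also hold 17 intronic loci named Rbfox1, 16 of which share the coordinates chr16:7007030-7414478. That span takes in 3292 of the 4400 exonic bases of Rbfox1, or 74.8%, and a locus of another type for it was not analysed here. By this annotation, values of the Rbfox1 locus are therefore values of an intronic stretch. They then say nothing of the mature Rbfox1 transcript, the neuronal regulator linked to epilepsy and autism.

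**Figure D3:**
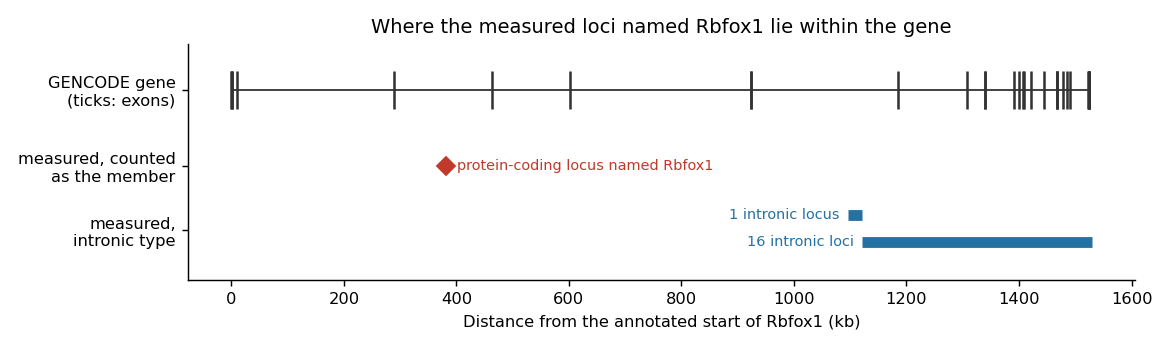
Position of the measured loci named Rbfox1 along the annotated gene, in kb from its start, with ticks for annotated exons. The protein-coding locus sits 380.3 kb from the start between exons, and 16 of the 17 intronic loci share the span that holds the exons of the distal part.

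That intronic stretch was at 1.72, 1.67, 1.45 and 2.09 FPKM in siHdac4, at 1.78, 1.996, 1.82 and 2.32 FPKM in siBdnf and at 1.33, 1.86, 2.93 and 2.67 FPKM in siScramble. The siScramble libraries held both the lowest and the highest value. The log2 fold change was −0.20 for siHdac4 against siScramble (95% interval −0.53 to 0.13, limma adjusted p = 0.641) and −0.074 for siBdnf against siScramble (95% interval −0.40 to 0.26, limma adjusted p = 0.922). The siHdac4 value was −0.34 without siScramble library 1 (limma adjusted p = 0.173), −0.090 without siScramble library 3 (limma adjusted p = 0.909) and −0.12 without siScramble library 4 (limma adjusted p = 0.854). In siHdac4 the authors' deposited table has −0.34, with a p of 0.0379 and an FDR of 0.681.

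The 17 intronic loci of Rbfox1 were more abundant than that stretch, with siScramble means of 5.36 to 154 FPKM. The locus of largest fitted difference between siHdac4 and siScramble was at 14.7, 14.0, 13.9 and 18.5 FPKM in siHdac4, at 23.7, 22.1, 20.1 and 26.8 FPKM in siBdnf and at 16.4, 29.5, 21.9 and 27.1 FPKM in siScramble. It lay lower in every siHdac4 library than in any siBdnf library, with a log2 fold change of −0.57 between them (limma adjusted p = 0.223). For siHdac4 against siBdnf, 16 of the 17 loci had a log2 fold change below 0, with a median of −0.32 and a range of −1.002 to 0.16. At an unadjusted p below 0.05, 8 were lower and 0 higher, beside 23.3% lower and 0.787% higher among all intronic loci, and by limma with an adjusted p below 0.05, 0 were called. Intronic loci as a whole lay the same way. Of the 3303 tested, 81.9% were below 0 in that comparison, with a median of −0.15, against 50.5% of protein-coding loci.

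The Rbfox1 introns were also set against siScramble, whose libraries both comparisons share. In siHdac4, 12 of 17 were below 0 with a median of −0.12, beside 64.7% of all intronic loci and a median of −0.057. In siBdnf, 15 of 17 were above 0 with a median of 0.14, and all intronic loci had a median of 0.094 with 23.3% below 0. By library, the median deviation of the 17 loci from their 12-library mean was between −0.27 and 0.0058 in siHdac4, −0.029 and 0.39 in siBdnf, and −0.33 and 0.29 in siScramble. The median of all intronic loci was between −0.12 and −0.024 in siHdac4, 0.037 and 0.19 in siBdnf, and −0.15 and 0.098 in siScramble. Both medians had the same sign in 10 of 12 libraries, and siScramble alone covered nearly the full range of the Rbfox1 introns. The 17 loci share a gene and 16 share a span, so they are not independent measurements.

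**Figure D4:**
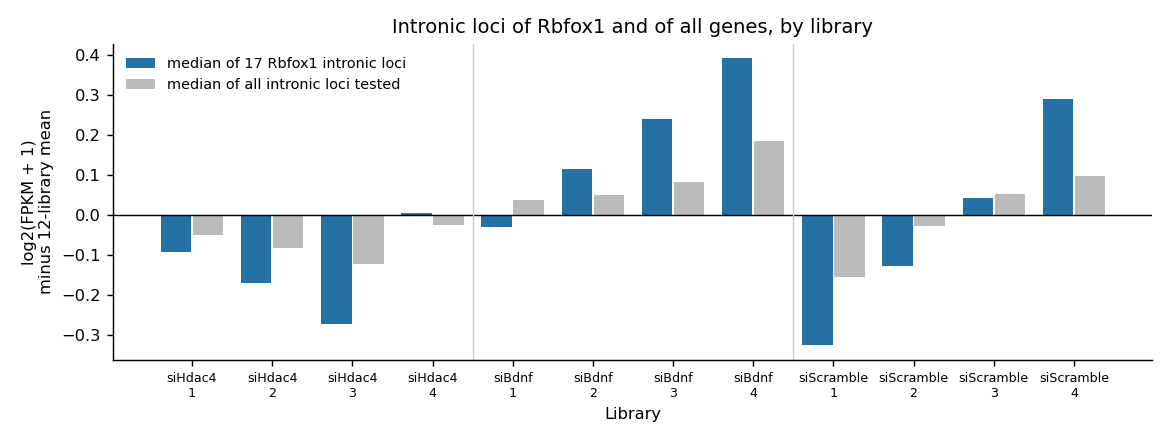
Median deviation from the 12-library mean, on the log2(FPKM + 1) scale, of the 17 Rbfox1 intronic loci (blue bars) and of all 3303 intronic loci tested (grey bars) in each library. The Rbfox1 introns run from −0.33 in siScramble library 1 to 0.39 in siBdnf library 4.

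Celf5, Rbfox3 and the Rbfox1 locus varied together from library to library, also within groups. All 3 were low in siScramble library 1 and high in siScramble libraries 3 and 4, and within siHdac4 all 3 were higher in library 4 than in libraries 2 and 3. Over the 12 libraries, log2(FPKM + 1) of Celf5 and Rbfox3 gave a Pearson r of 0.88 (permutation p = 0.00020) and a Spearman rho of 0.85 (permutation p = 0.00095). Without the 2 libraries farthest from the median of Rbfox3, r was 0.79, and with group means removed it was 0.88. In each pair the median used was that of the member of higher mean. For Celf5 and the Rbfox1 locus r was 0.83 (permutation p = 0.00107), rho 0.87 (permutation p = 0.00038), r without the 2 farthest libraries 0.91 and r within groups 0.84. For Rbfox3 and the Rbfox1 locus the values were 0.79 (permutation p = 0.0024), 0.88 (permutation p = 0.00033), 0.75 and 0.87. Over the 10 libraries other than siScramble 1 and 3, r for these pairs was 0.85, 0.80 and 0.66 in the same order. These are the 3 highest of 36 pairs of members, chosen after all were seen, and the p-values are two-sided and not adjusted. Among 11047 other protein-coding loci, 0.579% reached the same r of 0.88 or more with Celf5, and 0.815% reached it with Rbfox3. The r of 0.83 was reached by 1.58% with Celf5 and 1.05% with the Rbfox1 locus, and the r of 0.79 by 3.23% with Rbfox3 and 2.05% with the Rbfox1 locus.

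The other members had smaller SDs within groups on the log2(FPKM + 1) scale, and some also varied together. Mbnl1 had r of −0.71 with Celf5 and Celf1 had r of −0.71 with Rbfox3 (permutation p = 0.010 for both; rho −0.74 and −0.73, permutation p = 0.0081 and 0.0083). Without the 2 farthest libraries these were −0.55 and −0.57. Celf1 and Nova1 had r of 0.36 over the 12 libraries but 0.85 within groups, above the 0.84 of Celf5 and the Rbfox1 locus. Celf4 had r of −0.67 with Rbfox3, and Nova1 had r of −0.64 with Celf5 and −0.65 with the Rbfox1 locus. These pairs were also picked after all were seen, and the median r over the 36 pairs was −0.045. The libraries also differed in how their deviations went with transcript length and GC content. The rank correlation of a library's deviations with transcript length, over 10370 protein-coding loci, was −0.10 in siScramble library 1 but 0.16 and 0.18 in libraries 3 and 4. In siHdac4 libraries 1 to 4 it was −0.078, −0.079, −0.18 and −0.080. In siBdnf it was −0.079 to 0.12. The same correlation with GC content was −0.034, −0.031, 0.065 and 0.061 in siHdac4 libraries 1 to 4, and −0.15 to 0.10 in siBdnf. In siScramble it was 0.18, −0.0060, −0.048 and 0.072 in libraries 1 to 4. The longest transcript was longer than those of 65.5% of the loci for Celf5 and 40.9% for Rbfox3. GC content of the longest transcript was 58.6% for Rbfox3 and 55.2% for Celf5, higher than in 92.6% and 79.7% of the loci, and 38.5% for Nova1 and 39.7% for Mbnl1, higher than in 2.7% and 5.17%. Their part in the shared pattern was not tested.

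**Figure D5:**
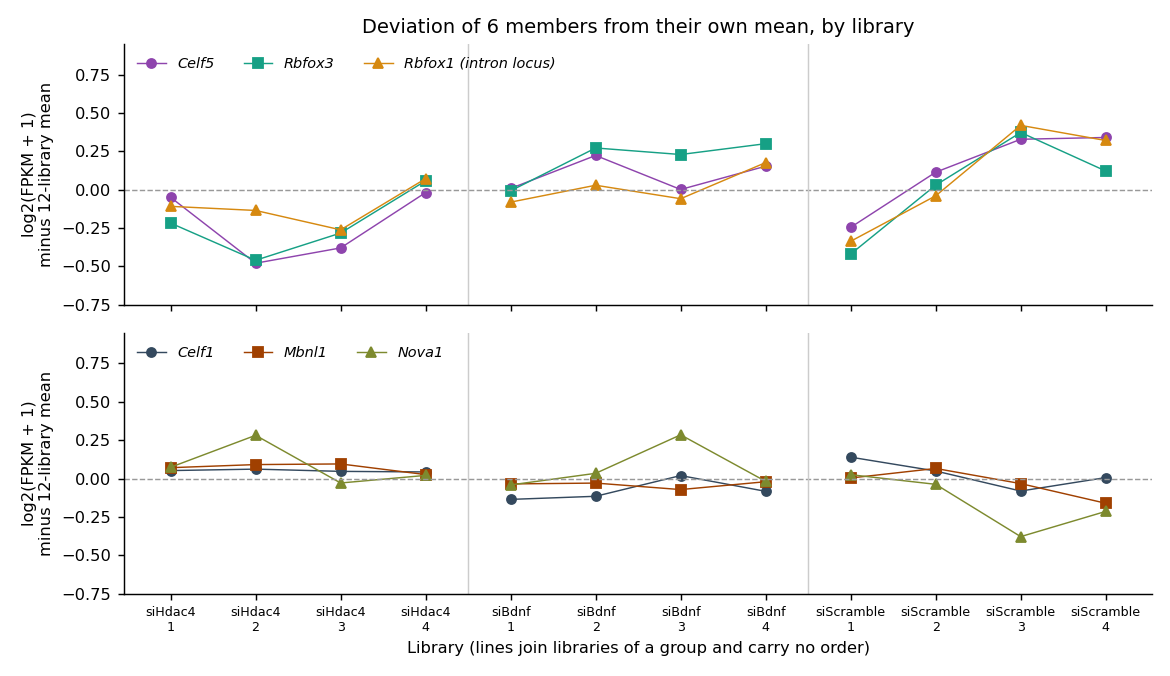
Deviation of 6 members from their own 12-library mean of log2(FPKM + 1), by library, with Celf5, Rbfox3 and the Rbfox1 locus above and Celf1, Mbnl1 and Nova1 below. The upper 3 go down together in siScramble library 1 and siHdac4 library 2 or 3 and up together in siScramble libraries 3 and 4.

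Because Celf5 and Rbfox3 moved together, their RefSeq promoter windows (GRCm38.p6, 250 bases before to 50 after the start) are given, with motif matches on either strand in capitals. The GC box was searched as GGGCGG. The box of the NF-Y factor was searched as CCAAT. The motif of TATA-dependent promoters was searched as TATAAA, and the cyclic AMP response element as TGACGTCA. RefSeq held windows for 8 of the 10 member names. The Celf5 window is chr10:81482650-81482949 on the minus strand, 1 of 5 listed for the gene, and the Rbfox3 window is chr11:118760992-118761291 on the minus strand. The windows are not placed alike. That of Celf5 takes in the start of the GENCODE gene at 81482709, while that of Rbfox3 lies inside the gene, which starts at 118911597.
Celf5: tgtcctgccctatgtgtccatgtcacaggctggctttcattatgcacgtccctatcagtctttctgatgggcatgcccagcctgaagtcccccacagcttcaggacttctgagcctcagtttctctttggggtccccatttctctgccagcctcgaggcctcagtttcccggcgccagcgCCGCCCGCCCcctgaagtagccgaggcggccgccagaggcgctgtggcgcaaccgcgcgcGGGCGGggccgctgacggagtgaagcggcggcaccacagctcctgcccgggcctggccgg
Rbfox3: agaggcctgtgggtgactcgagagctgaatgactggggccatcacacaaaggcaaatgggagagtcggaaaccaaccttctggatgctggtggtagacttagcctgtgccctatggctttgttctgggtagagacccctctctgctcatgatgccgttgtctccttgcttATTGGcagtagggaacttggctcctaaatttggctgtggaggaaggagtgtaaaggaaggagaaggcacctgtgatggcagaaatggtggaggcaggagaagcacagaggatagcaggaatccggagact
The Celf5 window held 3 GC box matches, of which 2 on the other strand overlap, and 23 CpG steps at a GC content of 66.3%. The Rbfox3 window held 1 NF-Y box match on the other strand and 4 CpG steps at 53.0% GC. Over 32851 promoter windows the median was 7 CpG steps and 52.7% GC, and 35.7% held a GC box, 37.4% an NF-Y box, 13.6% the TATAAA motif and 1.8% the response element. No motif of the 4 was found in both windows printed here, which says only that these letters were not shared there. Another of the 5 Celf5 windows, chr10:81473334-81473633, held 1 NF-Y box match, as the Rbfox3 window did.

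Outside the members, the locus most like each in its pattern over the 12 libraries was searched among 11047 protein-coding loci. It was Hlf, a circadian-controlled transcription factor, for Celf5 (r = 0.95), Hsf1, the heat shock transcription factor, for Rbfox3 (r = 0.96) and Pnmal2 for the Rbfox1 locus (r = 0.94). It was Mgat3, a glycosyltransferase, for Celf1 (r = 0.91), Herc2, a ubiquitin ligase, for Celf4 (r = 0.91) and Ube2e1, a ubiquitin-conjugating enzyme, for Mbnl1 (r = 0.92). For Mbnl2 it was Os9, a lectin of the endoplasmic reticulum (r = 0.84), for Rbfox2 Cnr1, the cannabinoid receptor of neurons (r = 0.92), and for Nova1 Grsf1, a mitochondrial RNA-binding protein (r = 0.87). Each is the highest of 11047 values over 12 libraries and is a description of likeness.

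Of the paralogues outside the members, Celf3 and Celf6 were tested and were not called. Celf3 averaged 14.9 ± 0.966 FPKM in siHdac4, 15.1 ± 1.24 FPKM in siBdnf and 14.6 ± 0.814 FPKM in siScramble, and Celf6 averaged 7.91 ± 1.14, 7.11 ± 0.516 and 7.51 ± 1.43 FPKM in the same groups (SD, n = 4 each). The smallest limma adjusted p of either was 0.657. Nova2 was at 0.819, 1.06, 0.919 and 0.670 FPKM in siHdac4, at 0.715, 0.898, 0.892 and 0.826 FPKM in siBdnf and at 1.17, 0.822, 1.37 and 1.59 FPKM in siScramble. In all, 3 of the 4 siScramble values lay above every siHdac4 and siBdnf value. Nova2 was under the filter and was not tested. Mbnl3 was not analysed here.

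Other splicing regulators with restricted expression, 26 tested of 34 listed, had 0 members called by limma in every comparison. At an unadjusted p below 0.05, 7 were lower (5.43% of all loci) and 1 higher (4.52%) for siHdac4 against siScramble, with a median log2 fold change of −0.084. Pcbp1, a poly-C binding protein, averaged 13.3 ± 1.58 FPKM in siHdac4 and 17.1 ± 2.28 FPKM in siScramble (log2 fold change −0.33, limma adjusted p = 0.482), and its relative Pcbp3 averaged 11.7 ± 1.84 and 14.7 ± 1.24 FPKM (−0.31, limma adjusted p = 0.482). For siBdnf against siScramble, Ptbp1, the repressor of neuronal exons in other cells, averaged 9.10 ± 0.562 FPKM in siBdnf and 11.9 ± 3.15 FPKM in siScramble (−0.32, limma adjusted p = 0.578), and Pcbp1 was at −0.22 (limma adjusted p = 0.599). For siHdac4 against siBdnf, Rbm20, a regulator of titin splicing in heart, averaged 2.37 ± 0.619 FPKM in siHdac4 and 1.38 ± 0.493 FPKM in siBdnf (0.50, limma adjusted p = 0.259). Tial1, which binds U-rich RNA next to splice sites, averaged 28.0 ± 1.44 FPKM in siHdac4 and 33.3 ± 2.26 FPKM in siBdnf (−0.24, limma adjusted p = 0.281).

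SR proteins and their kinases, 19 tested of 24 listed, likewise had 0 called by limma in every comparison. For siBdnf against siScramble, 16 of 19 were above 0 with a median of 0.087. Over all loci, 10367 of 18339 were above 0 with a median of 0.021. At an unadjusted p below 0.05, 3 of the 19 were higher (5.72% of all loci) and 0 lower (2.9%). Clk1, a kinase that phosphorylates SR proteins, averaged 90.4 ± 1.82 FPKM in siBdnf and 78.9 ± 5.54 FPKM in siScramble (log2 fold change 0.20, limma adjusted p = 0.502), and Srpk2, a kinase of the same substrates, averaged 65.6 ± 3.01 and 59.3 ± 3.89 FPKM (0.15, limma adjusted p = 0.539). For siHdac4 against siBdnf, 5 of 19 were lower at an unadjusted p below 0.05 (10.5% of all loci). Tra2a, a splicing activator, averaged 85.1 ± 8.13 FPKM in siHdac4 and 107 ± 4.39 FPKM in siBdnf (−0.33, limma adjusted p = 0.232), and Clk1 averaged 78.5 ± 6.52 and 90.4 ± 1.82 FPKM (−0.20, limma adjusted p = 0.232). For siHdac4 against siScramble, 2 of 19 were lower (5.43% of all loci) and 1 higher (4.52%) at an unadjusted p below 0.05. Srsf4 averaged 16.6 ± 0.885 FPKM in siHdac4 and 19.2 ± 2.01 FPKM in siScramble (−0.19, limma adjusted p = 0.489). Son, a scaffold of nuclear speckles, averaged 56.0 ± 1.18 and 61.1 ± 3.74 FPKM (−0.12, limma adjusted p = 0.495).

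The hnRNP proteins (21 tested of 29 listed) and the core spliceosome (47 tested of 52) also had 0 called by limma in every comparison. At an unadjusted p below 0.05, 1 hnRNP gene was lower for siHdac4 against siScramble (5.43% of all loci), 0 for siBdnf against siScramble (2.9%) and 2 for siHdac4 against siBdnf (10.5%), and 0 were higher (4.52%, 5.72% and 5.15% of all loci). Hnrnpk averaged 193 ± 11.7 FPKM in siHdac4 and 236 ± 9.10 FPKM in siBdnf (log2 fold change −0.29, limma adjusted p = 0.229), and Nono, a paraspeckle protein, averaged 97.3 ± 6.86 and 113 ± 5.32 FPKM (−0.21, limma adjusted p = 0.263). For siBdnf against siScramble, Hnrnpk was at 0.19 (limma adjusted p = 0.595) and Nono at 0.12 (limma adjusted p = 0.703). For siHdac4 against siScramble, Hnrnpa3 was at −0.23 (limma adjusted p = 0.498) and Hnrnph2 at 0.10 (limma adjusted p = 0.522). Prpf8, the protein at the centre of the spliceosome, averaged 40.6 ± 1.86 FPKM in siHdac4, 34.8 ± 1.53 FPKM in siBdnf and 39.6 ± 1.64 FPKM in siScramble. Its log2 fold change was 0.22 for siHdac4 against siBdnf (limma adjusted p = 0.213) and −0.18 for siBdnf against siScramble (limma adjusted p = 0.495). Eftud2, a GTPase of the same particle, averaged 23.1 ± 1.48 FPKM in siHdac4 and 27.9 ± 3.27 FPKM in siScramble (−0.26, limma adjusted p = 0.482), and Sf3b3, of the branch site complex, was at 0.19 (limma adjusted p = 0.482). Cdc5l was at 0.19 for siBdnf against siScramble (limma adjusted p = 0.524), and Snrnp70, of the U1 particle, was at −0.18 for siHdac4 against siBdnf (limma adjusted p = 0.251). At an unadjusted p below 0.05, 3 spliceosome genes were lower (5.43% of all loci) and 2 higher (4.52%) for siHdac4 against siScramble. In siBdnf against siScramble, 1 was lower (2.9%) and 2 higher (5.72%), and for siHdac4 against siBdnf 5 were lower (10.5%) and 3 higher (5.15%).

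Transcripts known to carry exons regulated by these factors were measured as whole genes, since exon usage is not in the tables. Of 28 tested, 0 were called by limma in every comparison, and 3 were lower (5.43% of all loci) and 2 higher (4.52%) at an unadjusted p below 0.05 for siHdac4 against siScramble. Dnm2, a dynamin with MBNL-regulated exons, averaged 17.4 ± 0.762 FPKM in siHdac4, 17.2 ± 0.567 FPKM in siBdnf and 19.5 ± 0.508 FPKM in siScramble, with log2 fold changes of −0.15 (limma adjusted p = 0.482) and −0.17 (limma adjusted p = 0.495) against siScramble. Mapt, the tau gene, averaged 54.7 ± 4.44 FPKM in siHdac4, 61.6 ± 1.76 FPKM in siBdnf and 54.6 ± 3.41 FPKM in siScramble. Its log2 fold change was −0.17 for siHdac4 against siBdnf (limma adjusted p = 0.269) and 0.17 for siBdnf against siScramble (limma adjusted p = 0.524). Cacna1c, a calcium channel with exons bound by RBFOX proteins, averaged 42.2 ± 3.28 FPKM in siHdac4 and 48.9 ± 3.97 FPKM in siBdnf (−0.21, limma adjusted p = 0.301).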

How the data were processed

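Per the submitters' processing notes, TopHat2 2.0.9, Cufflinks and Cuffdiff were used. The sources used here do not name the build, the annotation or the scaling between libraries. The authors deposited FPKM of 22306 loci in 2 tables, siHdac4 and siBdnf each with the same 4 siScramble columns. The deposited log2 fold change and p-value per locus are the authors' own and are used only where their table is named. Coordinates are those of the tables, set beside GENCODE M21 (GRCm38). The ends of the Celf1 locus lay 48 and 31 bases from the annotated ends, among the closest of the members. Those of Celf4 lay 76 and 7243 bases away, those of Rbfox3 406 and 76641, and those of Celf2 6797 and 112951.

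Since FPKM is not a count, log2(FPKM + 1) was fitted with limma 3.58.1 (R 4.3.3), using a mean-dependent prior variance. Loci averaging 1 FPKM or more across libraries entered, with all 3 groups of 4 and no covariates, at an adjusted p below 0.05. A locus at 0 throughout one group and averaging 1 FPKM or more in another counted as not estimated and was dropped, which left 18339 loci. Differences on this scale understate the change of genes at low level. The fit was also run on simulated normal values, drawn independently for each locus and library. That run cannot show how the fit behaves where whole libraries differ, since it held no effect shared between loci.

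The members, lists and naming rule were chosen with earlier results of these data known. The rule named all members and paralogues, the 2 genes of smallest p per list and comparison, and the locus most like each member. A gene that this rule named is not reported here. The Rbfox1 intronic locus given by library was chosen after its values were seen. Permutation p-values used 100000 resamples of the libraries. Sequences are from GENCODE M21 transcripts and RefSeq promoters, aligned with Biopython 1.88. Python 3.11.15 with numpy 2.4.6, pandas 2.3.3 and matplotlib 3.10.9 did the rest. Alternatives were 0.1 or 0.5 FPKM added, other filters, quantile or median scaling, no trend, a replicate block, the 2 compared groups fitted alone, protein-coding loci alone, zeros kept, siScramble libraries 1 and 3 left out, and each library left out in turn.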

Additional observations from a re-analysis of the deposited data

How the results depend on the processing

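None of the 9 tested members was called under any of the 24 alternatives, of which 12 left out 1 library each. Keeping zeros puts Celf2 into the fit, and no call is given for it, since its values selected it. Of 645 member values recomputed, 616 kept their direction, but many of them could not change. Other filters, no trend, the replicate block and the 2 groups alone leave a member's fold change as it was. So does leaving out a library of the group not compared. The calls over all loci were few and moved. For siHdac4 against siScramble 1 locus was called. The count was 0 with the 2 groups alone, the replicate block, no trend or protein-coding loci alone, 7 without siScramble libraries 1 and 3, and 48 with the zeros of loci not estimated kept. Leaving out 1 library gave 0 to 36, the highest without siScramble library 1. For siBdnf against siScramble the count was 0, then 1 with the 2 groups alone or without siScramble libraries 1 and 3, 51 with zeros kept, and 0 to 1 without 1 library. For siHdac4 against siBdnf it was 1, then 0 with a mean of at least 5 FPKM, median scaling or the replicate block, 2 with no trend, 3 with protein-coding loci alone, 4 without siScramble libraries 1 and 3, 5 with zeros kept, 167 with the 2 groups alone, and 0 to 9 without 1 library. The cause of these shifts was not tested, except that keeping zeros adds loci listed at 0 by its construction.

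Same-numbered libraries had correlations of −0.076 to 0.24 between groups, and 8 of 24 correlated best with their own number. Each was the best of only 4 libraries, so such matches are common by chance. For number 4 the correlations were 0.13, 0.24 and 0.19, and for the other numbers −0.076 to 0.13. This check cannot settle whether the replicate numbers pair the libraries, since the labels do not say what they stand for. With the replicate block the limma adjusted p of Celf5 for siHdac4 against siScramble was 0.476 and that of Rbfox3 for siHdac4 against siBdnf 0.209.

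Some differences changed sign. For siHdac4 against siScramble, Mbnl2 was −0.023 but 0.0052 with median scaling and 0.016 without siScramble libraries 1 and 3, which also gave −0.025 for Rbfox2 and −0.049 for Celf6. Without 1 library, Celf4 ran from −0.025 to 0.085, Celf1 from −0.014 to 0.059, Celf3 from −9.0e-05 to 0.071 and Celf6 from −0.058 to 0.16. For siBdnf against siScramble, Mbnl2 was 0.0065 but −0.062 with quantile normalization and −0.0098 with median scaling. Without siScramble libraries 1 and 3, Rbfox2 was −0.022, Mbnl1 0.0083 and Nono −0.0012, against 0.12 with all libraries. Without 1 library, Mbnl2 ran from −0.0086 to 0.029, Mbnl1 from −0.051 to 0.024, Celf5 from −0.16 to 0.031 and Rbfox1 from −0.22 to 0.035. For siHdac4 against siBdnf, quantile normalization and median scaling gave 0.062 and 0.015 for Mbnl2, 0.049 and 0.042 for Rbfox2, and 0.030 and 0.031 for Celf3. Without 1 library, Rbfox2 ran from −0.0081 to 0.0022, Nova1 from −0.043 to 0.095 and Celf3 from −0.062 to 0.030. Read depth is unknown, so its limit on low loci such as Rbfox1 and Nova2 could not be set.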

Other observations

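Celf1 and Mbnl1 each had a tested intronic locus that shares the coordinates of the gene's main locus. The Mbnl1 intronic locus was at 3.61, 5.56, 4.64 and 6.17 FPKM in siHdac4, at 10.7, 4.93, 9.52 and 8.40 FPKM in siBdnf and at 6.62, 9.23, 6.90 and 5.80 FPKM in siScramble. Its log2 fold change was −0.62 for siHdac4 against siBdnf (95% interval −1.08 to −0.16, limma adjusted p = 0.239), while that of the main Mbnl1 locus was 0.11. The Celf1 intronic locus was at 8.12, 7.30, 5.35 and 7.32 FPKM in siHdac4, at 7.54, 8.14, 9.41 and 10.7 FPKM in siBdnf and at 7.63, 6.33, 7.55 and 8.48 FPKM in siScramble. Its log2 fold change for siHdac4 against siBdnf was −0.31 (95% interval −0.60 to −0.024, limma adjusted p = 0.290), while that of the main Celf1 locus was 0.13. Neither intronic difference passed the threshold, and 81.9% of all 3303 intronic loci tested lay below 0 in that comparison.

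In groups of 4 libraries, the values of the members and of the loci set beside them were checked for a library far from the other three. Of these 30 groups, 0 had one, where chance alone gives about 1 in 20. The 30 groups do not cover every locus named here. Celf6 in siScramble, at 8.34, 8.36, 5.39 and 7.97 FPKM in libraries 1 to 4, is not counted, though library 3 lay apart.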
